A study of Mus musculus with 45 samples.

Results

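The comparison covers 6 kidney arrays out of the 45 of the study, 3 from mice given the Ganoderma lucidum extract Gl-2 with a high-cholesterol diet (HCD+Gl-2) and 3 from mice given the extract Gl-1 with the same diet (HCD+Gl-1), and all 22080 genes of the deposited table. The arrays were taken by their tissue and diet labels, and no measured value entered that choice. Both groups were male C57BL/6 mice, 7 weeks old at the start and killed at day 43, on a diet with 0.5% cholesterol and 1% of a hydroalcoholic extract of the fruiting bodies of this medicinal mushroom. For Gl-1 the mushroom was grown on plain oak sawdust, and for Gl-2 on oak sawdust with 10 mM acetylsalicylic acid, so the extracts differ by what the fungus grew on and the mice received no other drug. The other kidney groups were the AIN-93 diet (Control), the cholesterol diet without extract (HCD) and the cholesterol diet with simvastatin (HCD+Sim), and liver and brain came from the same design. Each group had 8 mice: pool A held RNA of 4 of them, pool B of the other 4, and pool C was a mix of both. This leaves 2 independent sets of mice behind 3 arrays. The p-values below treat the arrays as 3 samples and may be too small. They rest on a spread between pools that was estimated for each gene over all 45 arrays, liver and brain included, not over the 6 kidney arrays alone.

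Values are log2 intensities, on which a difference of 1 is a 2-fold change. A gene is called differentially expressed (DE) when its limma p-value, adjusted over all 22080 genes by the Benjamini-Hochberg procedure, is at most 0.05 and its log2 difference is over 0.7 in size, and genes that pass the adjusted p alone are counted separately. An exact permutation test of 3 arrays against 3 cannot go below p = 0.1, so single genes were judged by limma only. The medians of the 6 arrays lay between 6.85 and 6.88, and the arrays correlated with r of 0.9961 to 0.9969 within a group and 0.9942 to 0.9959 between the groups. The titles and tissue labels say kidney, although a free-text field of these samples speaks of brain. The summed level of 10 proximal tubule markers was 15.91 to 16.02 in the 15 kidney arrays against 10.24 to 10.60 in brain and 13.36 to 13.60 in liver, and the 6 neuronal markers stayed at 8.35 to 8.58 against 14.13 to 14.47 in brain. No depth of reading exists for arrays, and their number limits the precision.

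Most of the DE genes described below are immediate early genes. These are transcribed within minutes of a signal, without new protein synthesis, from promoters that bind CREB, serum response factor and related factors, and many of them encode transcription factors of the AP-1, Egr and Nr4a families, which carry the signal on. Others encode phosphatases, RNA-destabilising proteins and G protein regulators, which help to end the response. Growth factors, hormones and stress of many kinds induce immediate early genes, and their RNAs are short-lived.

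Kidneys of mice fed Gl-2 differed from those of mice fed Gl-1 almost wholly in one direction. Of the 22080 genes, 39 were DE and higher with Gl-2, which is 0.177% of those tested, and only Cyp24a1, the enzyme that inactivates vitamin D, was DE and lower, which is 0.00453%. At the adjusted p alone 72 genes were higher (0.326%) and 15 lower (0.0679%), and 1470 had an unadjusted p under 0.05. The 3 Gl-2 arrays lay fully above the 3 Gl-1 arrays, or fully below for Cyp24a1, in all 40 DE genes and in 86 of the 87 genes at the adjusted p. Over all genes 8.28% had the Gl-2 arrays fully above and 8.31% fully below, and the median log2 difference over all genes was 0.00. The differences were large, with 8 genes over 4-fold higher. The number of DE genes stayed between 36 and 47 with any 1 array left out, but the 87 genes at the adjusted p fell to 57 without pool A of Gl-2, to 55 without its pool C and to 56 without pool B of Gl-1, and rose to 163 in a fit of the 15 kidney arrays only.

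**Figure D1:**
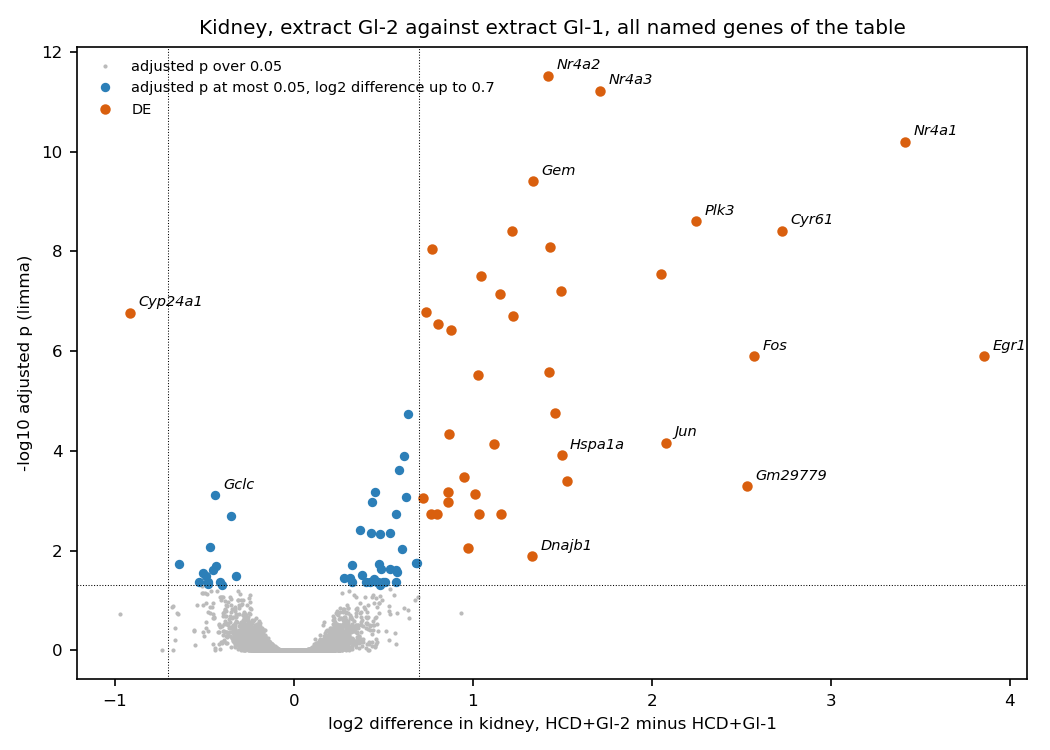
Each point is a gene, with the log2 difference in kidney, HCD+Gl-2 minus HCD+Gl-1, on the x axis and the negative log10 of limma's adjusted p on the y axis, and dotted lines at the thresholds of 0.7 and 0.05. The 39 DE genes at the right reach from Cxcl1 at 0.72 to Egr1 at 3.86, and Cyp24a1 stands alone at the left.

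The Egr and Nr4a transcription factors held the largest differences. Egr1, a zinc finger activator induced by growth factors and stress, read 10.73, 10.44 and 10.80 in Gl-2 pools A, B and C and 6.73, 6.66 and 7.02 in the Gl-1 pools. The Gl-2 arrays were all more than 3 log2 units above every Gl-1 array, and the fitted difference was 14.5-fold (log2 difference 3.86, SE 0.48, adjusted p = 1.25e-06). Nr4a1, the orphan nuclear receptor NUR77, read 10.47, 10.05 and 10.62 with Gl-2 against 6.90, 7.00 and 6.99 with Gl-1, a 10.7-fold difference (log2 difference 3.41, SE 0.28, adjusted p = 6.31e-11). Its relatives Nr4a3 (6.75, 6.39 and 6.83 against 5.06, 4.86 and 4.91) and Nr4a2 (7.87, 7.59 and 7.69 against 6.35, 6.34 and 6.20) were also without overlap between the groups. They differed by 1.71 and 1.42 on the log2 scale with SEs of 0.13 and 0.10, and had the smallest adjusted p-values of the 40 DE genes (5.97e-12 and 3.02e-12). As for Egr1 and Nr4a1, these SEs come from the spread over all 45 arrays, liver and brain included. They therefore do not rank the genes by their spread in kidney alone. Egr2 rose by 1.53 (adjusted p = 0.000402). In all, 5 of the 9 measured Egr and Nr4a genes and their cofactors were DE and higher, with a median of 1.42, and the other members were not called: Egr3 (0.09), Egr4 (-0.08) and the corepressors Nab2 (0.15) and Nab1 (-0.16).

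Members of AP-1, the dimer of Fos and Jun proteins, rose with them. Fos read 8.85, 8.45 and 8.78 with Gl-2 and 5.94, 6.19 and 6.23 with Gl-1, a 5.95-fold difference (log2 difference 2.57, SE 0.32, adjusted p = 1.25e-06). Jun read 9.50, 8.92 and 9.80 against 7.38, 7.11 and 7.49, 4.23-fold higher (adjusted p = 6.87e-05). Fosb (1.23) and Junb (0.87) were also DE, and Fosl2 passed the adjusted p alone (0.54, adjusted p = 0.00434), which it lost without pool A or pool C of Gl-2. The list thus had 4 of 11 genes DE and 5 at the adjusted p, all higher. Jund (0.24), Fosl1 (0.11), Jdp2 (0.08) and the Batf genes (-0.02 to 0.05) were not called, and the list's median was 0.24.

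**Figure D2:**
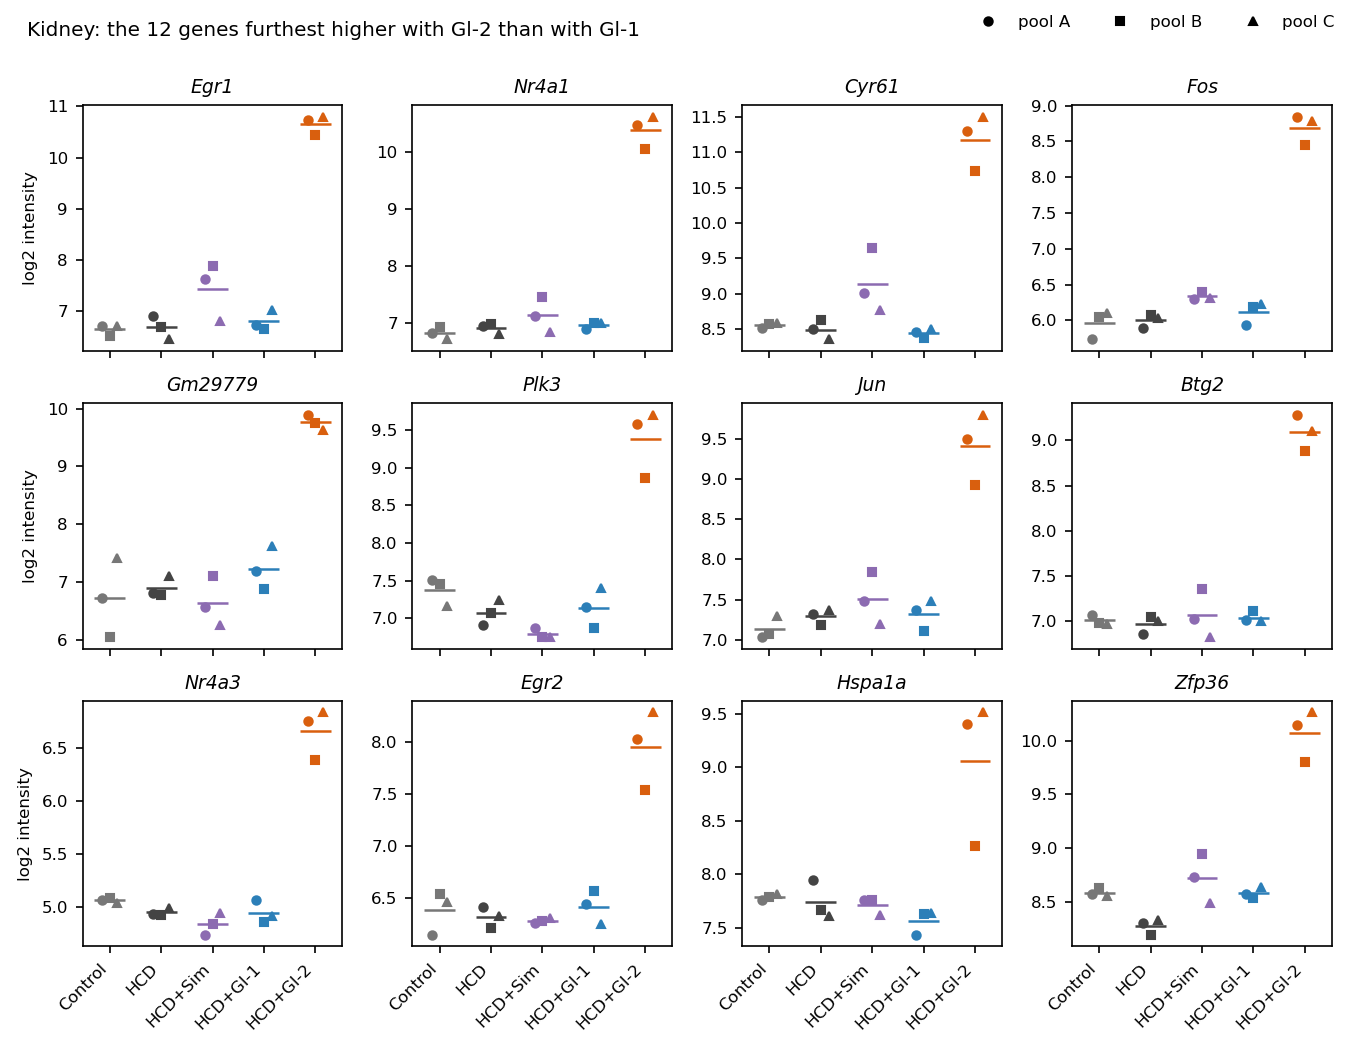
Log2 intensity (y axis) of the 12 genes furthest higher with Gl-2, in the 5 kidney diet groups (x axis), with 1 point per array shaped by pool and a line at each group's mean. In each panel the 3 HCD+Gl-2 arrays lie above the other 12 arrays, from Egr1 at 10.44 to 10.80 down to Hspa1a at 8.26 to 9.51 and Zfp36 at 9.81 to 10.26.

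Promoter sequence from RefSeq (GRCm38.p6, 250 bases before to 50 after the annotated start) was on hand for 32 of the 39 genes that were DE and higher, and 3 windows are shown because they carry the letters that most of these genes share, with the short cAMP response element TGACG, read on either strand, in capitals. The first is Nr4a1 (chr15:101266596-101266895, plus strand), which holds 4 copies in its last 233 bases before the start. The second is Fos (chr12:85473640-85473939, plus strand) with 2 copies, and the third is Dusp1 (chr17:26508423-26508722, minus strand) with 3 matches, the pair that overlaps forming the full element TGACGTCA.
Nr4a1: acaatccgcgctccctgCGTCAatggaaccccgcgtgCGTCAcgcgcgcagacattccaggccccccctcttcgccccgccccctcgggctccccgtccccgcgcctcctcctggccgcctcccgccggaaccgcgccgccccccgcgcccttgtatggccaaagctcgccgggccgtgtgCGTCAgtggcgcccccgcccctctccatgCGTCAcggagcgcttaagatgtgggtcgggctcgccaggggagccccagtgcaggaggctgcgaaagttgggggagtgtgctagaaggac
Fos: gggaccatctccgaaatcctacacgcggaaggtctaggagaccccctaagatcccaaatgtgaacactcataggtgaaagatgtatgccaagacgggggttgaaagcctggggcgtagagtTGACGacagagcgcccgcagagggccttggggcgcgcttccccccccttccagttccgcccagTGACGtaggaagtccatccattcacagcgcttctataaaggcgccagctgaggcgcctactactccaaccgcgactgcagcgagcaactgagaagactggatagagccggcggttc
Dusp1: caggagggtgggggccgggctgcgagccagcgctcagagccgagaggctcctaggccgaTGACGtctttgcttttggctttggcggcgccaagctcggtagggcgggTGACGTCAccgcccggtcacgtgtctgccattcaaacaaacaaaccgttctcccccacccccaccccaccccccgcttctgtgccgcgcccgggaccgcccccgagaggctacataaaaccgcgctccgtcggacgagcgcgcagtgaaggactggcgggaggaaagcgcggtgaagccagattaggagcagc

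TGACG stood in the windows of 24 of the 32 genes (75.0%) against 23.0% of the 27025 genes in the promoter set. The full palindrome TGACGTCA, which contains it, was in 4 of the 32 (Btg2, Dusp1, Rcan1 and Slc25a25, 12.5%) against 2.03%. The Egr element GCGNGGGCG, on either strand, was in 8 (25.0%) against 6.27%, the CArG box of serum response factor in 2 (6.25%) against 1.81%, and the AP-1 element TGANTCA in 2 (6.25%) against 8.97%. These are counts of letters in short windows, given without a test, and the motifs were chosen after the genes were known. Some genes had several windows, up to 5 among the 32 (Egr2), and the 27025 genes had 32851 in all. A gene counted if any of its windows held the letters, so genes with more windows had more room for a match.

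Of 36 genes listed as immediate early feedback genes, 7 were DE and higher and 27 were not called at the adjusted p. Dusp1, the phosphatase that switches off MAP kinases, read 12.03, 11.69 and 12.12 with Gl-2 and 10.46, 10.38 and 10.63 with Gl-1 (log2 difference 1.46, SE 0.20, adjusted p = 1.74e-05). Zfp36, which destabilises AU-rich mRNAs, read 10.15, 9.81 and 10.26 against 8.57, 8.53 and 8.63 (log2 difference 1.49, SE 0.16, adjusted p = 6.35e-08). Btg2, an antiproliferative gene, had the largest difference of the list (9.29, 8.88 and 9.10 against 7.01, 7.11 and 6.99, 4.15-fold, adjusted p = 2.83e-08). For each of the 3 the groups were apart by over 1 log2 unit at their nearest arrays. Ier2 (1.43), Ier3 (1.22), the calcineurin inhibitor Rcan1 (1.12) and the G protein regulator Rgs2 (0.80) were DE as well. With Spry4 (0.51) and Tob1 (0.48) 9 passed the adjusted p, none of them lower. Without pool C of Gl-2 the calls on both were lost (0.43 and 0.40), and that on Spry4 also without pool A of Gl-2 and without any one of the Gl-1 pools. The ERK phosphatase Dusp6 did not pass at 0.68 (adjusted p = 0.0996), nor did the cytokine inhibitor Socs3 at -0.02, and the median was 0.23.

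Among 36 other immediate early genes 11 were DE and 13 passed the adjusted p, all higher, with a median of 0.34. Cyr61, a secreted matrix protein of the CCN family, read 11.30, 10.73 and 11.50 with Gl-2 against 8.46, 8.38 and 8.50 with Gl-1, a 6.64-fold difference (log2 difference 2.73, SE 0.26, adjusted p = 3.83e-09). Plk3, a stress kinase, read 9.58, 8.87 and 9.71 against 7.14, 6.87 and 7.41, a 4.75-fold difference (adjusted p = 2.48e-09). Both had pool B as the lowest Gl-2 array, still above every Gl-1 array. Atf3 (1.43), the small GTPase Gem (1.34), Gadd45g (1.16), the EGF receptor ligand Hbegf (1.15), Csrnp1 (1.05), the mitochondrial carrier Slc25a25 (1.03), the prostaglandin synthase Ptgs2 (0.97), the matrix protease Adamts1 (0.88) and Klf6 (0.80) made up the rest. The call on Ptgs2 was lost without pool C of either group. Arc (0.69) and the Cyr61 relative Ctgf (0.56) were not called, and Areg (0.05), Ereg (-0.06) and Klf5 (-0.04) stayed near 0.

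Taking the 4 immediate early lists as one, 27 of 92 genes were DE and 32 passed the adjusted p, none lower, and the median log2 difference was 0.30. In 59 of the 92 the 3 Gl-2 arrays lay fully above the 3 Gl-1 arrays and in 1 fully below, beside 8.28% and 8.31% of all genes. The 13 DE genes outside these lists included 4 of the heat shock genes.

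**Figure D3:**
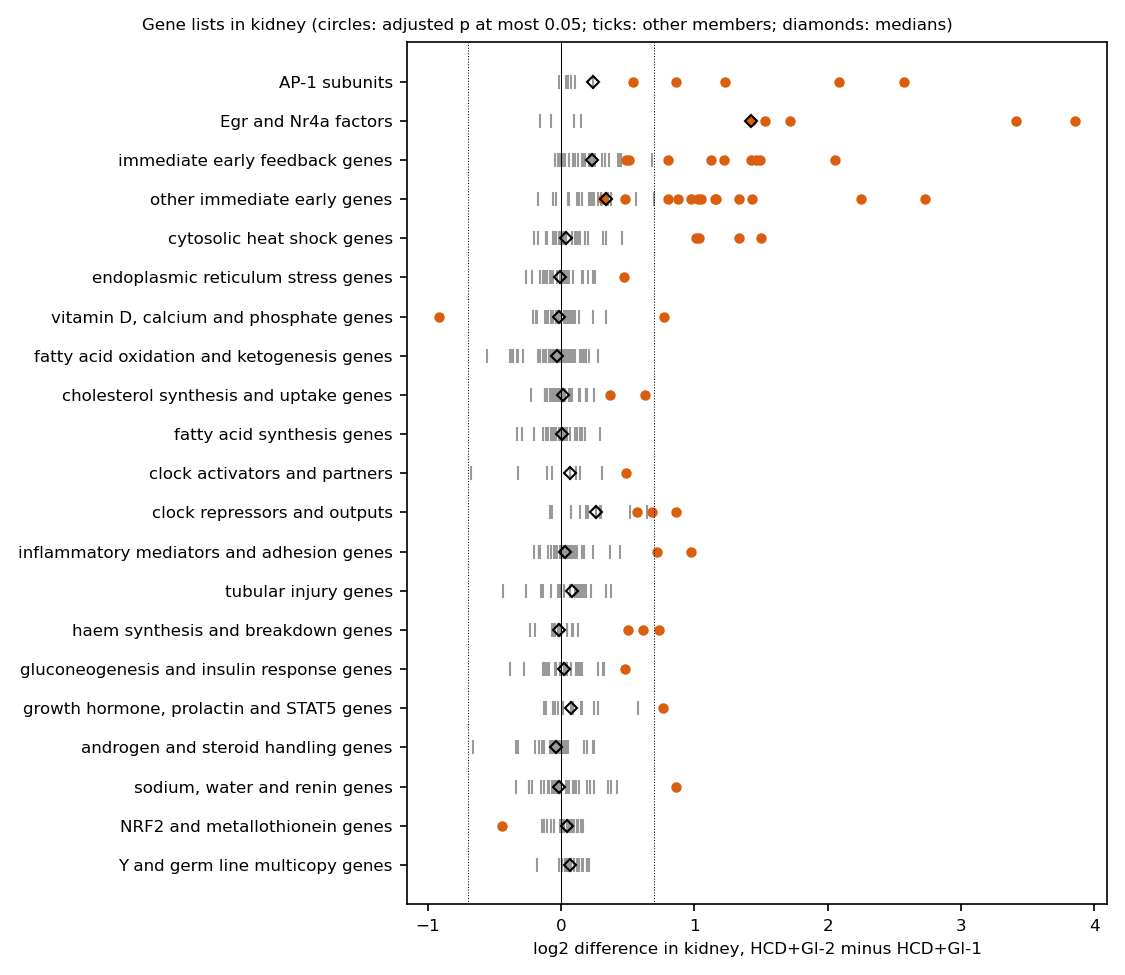
Log2 difference in kidney, HCD+Gl-2 minus HCD+Gl-1 (x axis), of every measured member of 21 gene lists (y axis), with circles for genes at an adjusted p of at most 0.05, ticks for the rest and diamonds for medians. The upper 4 lists hold 32 of the circles and reach 3.86, while the metabolic lists stay within 1 log2 unit of 0.

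Heat shock genes moved in part. Hspa1a, the inducible HSP70 chaperone, read 9.40, 8.26 and 9.51 with Gl-2 and 7.43, 7.62 and 7.63 with Gl-1, a 2.82-fold difference (SE 0.23 on the log2 scale, adjusted p = 0.000122). Pool B of Gl-2 was over 1 log2 unit below the other Gl-2 arrays and yet above all Gl-1 arrays. Its neighbour copy Hspa1b read 9.64, 8.96 and 9.98 against 8.50, 8.55 and 8.43 (difference 1.03). Their promoter windows are identical at 296 of 300 bases, and their transcripts are near-identical too, so the array may not separate the pair. The Hspa1a window (chr17:34972107-34972406, minus strand) is shown for the heat shock element, the site of HSF1, in its form of 2 units, GAANNTTC, which 5 of the 32 genes hold (15.6%) against 9.04% of all, 2 of the 5 being the near-identical Hspa1a and Hspa1b. The form of 3 units was in 0 of the 32 genes and in 0.662% of all genes.
Hspa1a: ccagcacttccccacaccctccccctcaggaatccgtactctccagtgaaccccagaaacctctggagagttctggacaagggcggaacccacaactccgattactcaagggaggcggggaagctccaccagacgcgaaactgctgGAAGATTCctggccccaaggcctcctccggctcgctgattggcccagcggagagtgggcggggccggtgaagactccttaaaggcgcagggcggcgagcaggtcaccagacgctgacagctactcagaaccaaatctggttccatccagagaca

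The HSP40 cochaperones Dnajb1 (9.15, 8.50 and 9.50 against 7.79, 7.58 and 7.78, adjusted p = 0.0128) and Dnajb4 (difference 1.01) were the other DE members, which made 4 of 38. The Dnajb1 call was lost without pool A or pool C of Gl-2 and without pool B of Gl-1, where its differences were 1.28, 1.11 and 1.26, and the Hspa1b call without pool C of Gl-2. The other 34 members were not called, among them Hsph1 (0.46), Bag3 (0.13), Hspb1 (0.08) and Hsp90aa1 (-0.04), and the median of the list was 0.03. Hspa8, the constitutive HSP70, read 12.93, 12.82 and 13.02 against 12.56, 12.57 and 12.63 without overlap and was not called (0.34, adjusted p = 0.0765). The box C/D snoRNA Snord14e, which lies inside Hspa8 in the RefSeq annotation, was DE (0.86), and its companion Snord14d, also inside Hspa8, passed the adjusted p (0.57), a call lost without any one array other than pool B of Gl-2. Snord14e was named after its values were seen. Of 33 endoplasmic reticulum stress genes only Ddit4, an inhibitor of mTORC1, passed (0.47, adjusted p = 0.0436), while the chaperone Hspa5 (0.05), Ddit3 (0.25) and Atf4 (0.24) did not. The Ddit4 call was lost in 7 of 15 alternatives, among them the 15 kidney arrays only and without pool A or C of Gl-2 or pool B or C of Gl-1 (0.33 to 0.49).

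Cyp24a1 was the 1 gene that was DE and lower with Gl-2. The enzyme hydroxylates calcitriol, the active vitamin D hormone, for breakdown, and it is expressed in the proximal tubule under the control of the vitamin D receptor, parathyroid hormone and FGF23. It read 10.22, 10.13 and 9.97 with Gl-2 and 10.92, 11.05 and 11.09 with Gl-1, so that Gl-2 was 1.89-fold lower (log2 difference -0.92, SE 0.10, adjusted p = 1.69e-07). The call held with each array left out, with log2 differences of -0.97 to -0.85. The HCD arrays were lower than both at 9.57, 9.80 and 9.68, and the Control and HCD+Sim arrays lay between the 2 extract groups at 10.46 to 10.63. Against HCD, whose arrays both comparisons share, Gl-1 was higher by 1.33 (SE 0.10, adjusted p = 6.45e-11) and Gl-2 by 0.42 (SE 0.10, adjusted p = 0.0321). Against Control, Gl-1 was higher by 0.47 (adjusted p = 0.0874, not called) and Gl-2 lower, with a difference of -0.45 (adjusted p = 0.0202). The 5 groups therefore ran from HCD over Gl-2 to Control and HCD+Sim and then Gl-1, with no overlap between neighbours except Control and HCD+Sim.

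Of the other 34 vitamin D, calcium and phosphate genes only Slc20a1, a sodium-phosphate cotransporter, was called. It was higher with Gl-2 (9.02, 8.73 and 8.96 against 8.10, 8.20 and 8.09, log2 difference 0.77, SE 0.08, adjusted p = 8.92e-09). The activating enzyme Cyp27b1 (0.06), the receptor Vdr (-0.21), the FGF23 coreceptor Kl (-0.04), the renal phosphate transporters Slc34a1 (-0.07) and Slc34a3 (0.04) and the calcium channel Trpv5 (-0.11) were not called, and the list's median was -0.02.

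**Figure D4:**
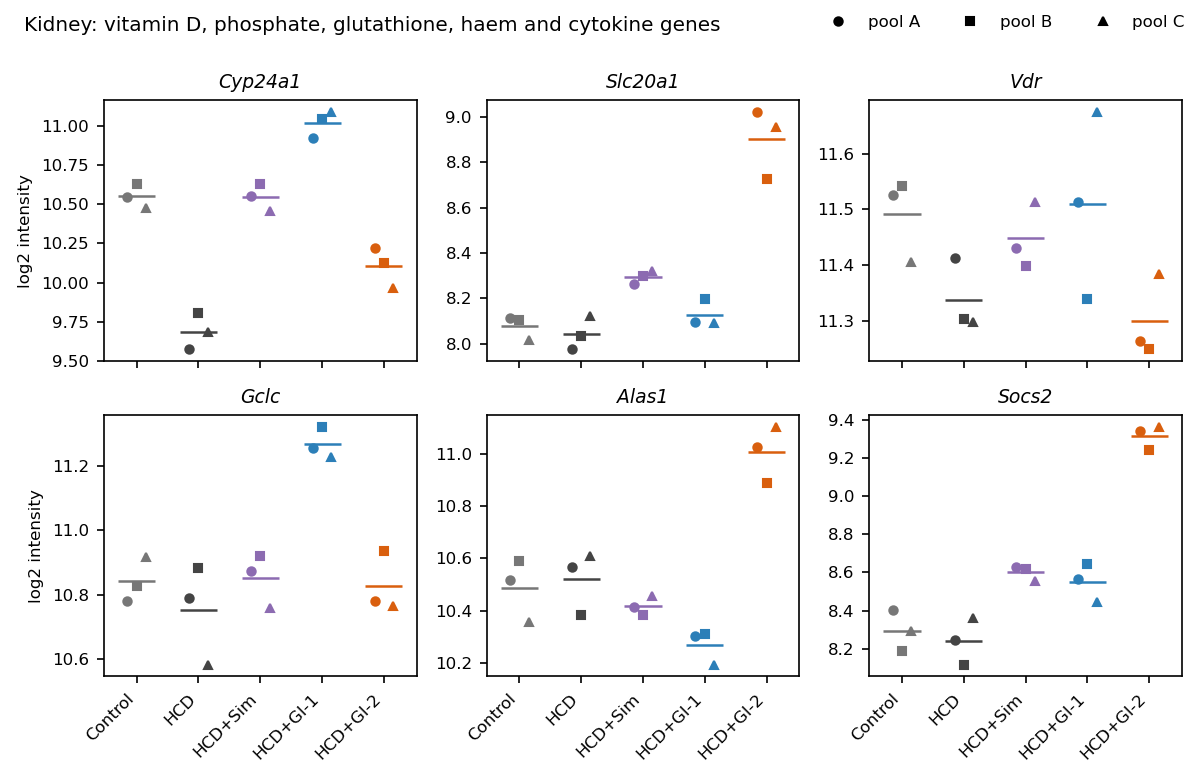
Log2 intensity (y axis) of 6 genes in the 5 kidney diet groups (x axis), with 1 point per array shaped by pool and a line at each group's mean. Cyp24a1 and Gclc are higher in HCD+Gl-1 than in HCD+Gl-2, Slc20a1, Alas1 and Socs2 are higher in HCD+Gl-2, and Vdr overlaps between the groups.

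Haem genes gave 3 higher members of 19. Alas1, the rate-limiting enzyme of haem synthesis, read 11.03, 10.89 and 11.10 with Gl-2 and 10.30, 10.31 and 10.19 with Gl-1 (log2 difference 0.74, SE 0.08, adjusted p = 1.68e-07). The Gl-1 arrays lay below the HCD arrays (10.57, 10.38 and 10.61) and the Gl-2 arrays above them. The fold threshold decides this call: without pool C of Gl-2 or pool C of Gl-1 the difference fell below 0.7, to 0.69 at the lowest. The transporters Mfsd7b, the haem exporter FLVCR1 (0.61, adjusted p = 0.000128), and Mfsd7c, its relative FLVCR2 (0.50, adjusted p = 0.0435), passed the adjusted p alone. The Mfsd7b call held in all 15 alternatives, and that on Mfsd7c was lost in 7, including each single array left out but pool C of Gl-1. The later enzymes Alad (-0.06) and Fech (0.00) and the haem oxygenase Hmox1 (0.13) were not called.

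Among 25 NRF2 and metallothionein genes Gclc was the only one called, and it was lower with Gl-2. It encodes the catalytic subunit of the enzyme that limits glutathione synthesis. It read 10.78, 10.93 and 10.77 with Gl-2 against 11.26, 11.32 and 11.23 with Gl-1 (log2 difference -0.44, SE 0.08, adjusted p = 0.000778). The Gl-2 arrays overlapped with those of HCD (10.79, 10.88 and 10.58), and Gl-1 was above HCD by 0.52 (adjusted p = 5e-05), Gl-2 by 0.08 (adjusted p = 0.902). Its partner subunit Gclm (-0.08) and the targets Nqo1 (0.12), Txnrd1 (0.00) and Slc7a11 (-0.01) did not pass.

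Hormone and cytokine genes gave single members. Socs2, the feedback inhibitor of growth hormone signalling, read 9.34, 9.24 and 9.36 with Gl-2 and 8.56, 8.64 and 8.44 with Gl-1 (log2 difference 0.76, SE 0.14, adjusted p = 0.00181), and it was the only 1 of 15 growth hormone, prolactin and STAT5 genes called. Its relative Cish differed by 0.58 while the repressor Bcl6, named after its value was seen, differed by -0.97, and neither was called (adjusted p = 0.182 and 0.183). Of 40 inflammatory genes 2 were DE, the neutrophil attractant Cxcl1 (7.62, 7.53 and 7.52 against 6.85, 6.72 and 6.94, difference 0.72) and Ptgs2, and the call on Cxcl1 was lost without pool A of Gl-2 and without pool B of Gl-1. There the difference of Cxcl1 fell below the threshold of 0.7, to 0.66 at the lowest, while limma's adjusted p stayed at 0.0185 or less. Il1b (0.37) and the adhesion molecules Icam1 (0.11) and Vcam1 (-0.08) were not called, and the median was 0.03.

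The circadian clock is described by 2 lists. Of the repressors and outputs, Per1 was DE (9.56, 9.12 and 9.79 against 8.63, 8.44 and 8.80, adjusted p = 0.000669), and Ccrn4l (0.68), the deadenylase nocturnin, and Bhlhe40 (0.57) passed the adjusted p, which made 3 of 15, all higher. Without pool A or pool C of Gl-2 both Ccrn4l and Bhlhe40 lost the call, as did Ccrn4l without pool B of Gl-1 and Bhlhe40 without its pool A or C. Per1 is itself an immediate early gene in many cells and also answers to aldosterone, and it was the only 1 of 34 sodium, water and renin genes called. Per2 (0.30), Dbp (0.29) and Nr1d1 (-0.07), which follow the clock's phase, were not called. Yet in 10 of these 15 genes the Gl-2 arrays lay fully above the Gl-1 arrays and in 0 fully below, against 8.28% and 8.31% of all genes. The log2 difference was positive in 13 and negative in 2, with a median of 0.26. An unadjusted p under 0.05 was found for 9 of the 15, beside 1470 of all 22080 genes. Of 9 activators and partners, Nfil3 passed (0.49, adjusted p = 0.0238), while Npas2, at 6.84, 6.62 and 6.91 against 7.45, 7.41 and 7.54, did not overlap and did not pass (-0.68, adjusted p = 0.136). The Nfil3 call was lost in 6 of 15 alternatives, among them without pool A or C of Gl-2 and without pool B or C of Gl-1 (0.38 to 0.51). Npas2 gained the call in 3, with the 15 kidney arrays only (adjusted p = 0.000321), the compared groups only (adjusted p = 0.011) and array weights.

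In the lists of lipid genes, the object of the diet, only Mylip and Abca1 passed limma's adjusted p. None of 58 fatty acid oxidation and ketogenesis genes passed limma's adjusted p (9 had an unadjusted p under 0.05), the range being from Acot2 (-0.56) to Ppara (0.28). Acot2 gained the call with pools A and B only (-0.81, adjusted p = 0.0474) and with array weights (-0.60, adjusted p = 0.0268). None of 26 fatty acid synthesis genes passed (5 unadjusted), from Scd3 (-0.33) to Thrsp (0.29). Over all genes only 0.326% passed as higher and 0.0679% as lower, so no call in lists of this size says little about them. An unadjusted p under 0.05 was found for 1470 of all 22080 genes. In 6 of the 26 synthesis genes the Gl-2 arrays lay fully above the Gl-1 arrays and in 5 fully below. Of the 58 oxidation genes these were 3 and 5, and of all genes 8.28% and 8.31%. Of 39 cholesterol genes, Mylip, a ubiquitin ligase induced by liver X receptors (9.77, 9.57 and 9.91 against 9.12, 9.09 and 9.16, log2 difference 0.63, SE 0.11, adjusted p = 0.000838), and Abca1, the cholesterol exporter (0.37, adjusted p = 0.00391), were higher with Gl-2. The Mylip call held in all 15 alternatives, and that on Abca1 was lost without pool C of Gl-2 (0.30). The synthesis enzymes Sqle (0.19) and Idi1 (-0.22) were not called. In 28 gluconeogenesis and insulin response genes only the kinase Sik1 passed (0.48, adjusted p = 0.0482). Its call was lost in 8 of 15 alternatives, among them the pool letter as a replicate block (adjusted p = 0.0661) and each single array left out but pool B of Gl-2 (0.40 to 0.53).

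Kidney injury and sex steroid genes showed no call. Of 24 tubular injury genes none passed limma's adjusted p. An unadjusted p under 0.05 was found for 4 of them, beside 1470 of all 22080 genes. The log2 difference was positive in 16 and negative in 8, with a median of 0.08 and Krt18 highest at 0.38. In 4 of them the Gl-2 arrays lay fully above the Gl-1 arrays and in 0 fully below, against 8.28% and 8.31% of all genes. Havcr1, the gene of KIM-1, read 5.48, 5.31 and 5.27 with Gl-2 against 5.57, 5.57 and 5.33 with Gl-1. Lcn2, which encodes NGAL, read 8.03, 8.36 and 7.74 against 8.61, 8.84 and 8.00, and for both genes the groups overlapped. None of 33 androgen and steroid handling genes passed (4 unadjusted), the lowest being Slc7a12 at -0.66, which passed without pool B of Gl-2 (-1.01), and none of 20 Y and germ line multicopy genes (1 unadjusted).

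Of the 40 DE genes, 2 fell outside the naming rule: Snord14e, given above, and Tmem252, a membrane protein gene (10.03, 9.35 and 9.85 against 8.54, 8.62 and 9.21, difference 0.95). Gm29779, a gene model without a described function here, was the fifth largest difference at 9.90, 9.76 and 9.62 against 7.19, 6.87 and 7.62 (log2 difference 2.53, SE 0.43, adjusted p = 0.000506). The 14 genes that were lower at the adjusted p alone included LOC102642717 (-0.64), the apoptosis protease Casp8 (-0.53), the tRNA dihydrouridine synthase Dus4l (-0.51), the wybutosine synthesis gene Tyw3 (-0.49) and the kallikrein Klk1b8 (-0.48). Each of these 5 lost its call with 1 array or another left out. Cnot11 (-0.35), a subunit of the CCR4-NOT deadenylase complex, lost its call without pool C of Gl-2, and Gclc kept it with every array left out. The rest were 2900052L18Rik, 4930503E14Rik, Tbx10, Itgb6, Slc18b1, Podn and Plekhj1.

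The pools did not carry the difference evenly. Pool B was the lowest Gl-2 array in 37 of the 39 higher genes, against 34.9% of all genes, and the exceptions were Cxcl1 and Gm29779. Pool C, made of both, was the highest in 29 and pool A in 10. Pool C lay between A and B in 8 of the 39 (20.5%) in Gl-2, against 29.1% of all genes. The median SD of the 39 genes was 0.238 over the Gl-2 arrays and 0.102 over the Gl-1 arrays, beside 0.0822 and 0.0778 for all genes. In liver, whose RNA came from the same animals, pool B was the lowest Gl-2 array in 35 of the 39, and the share over all genes was not computed there. The sources do not say whether a pool letter stood for the same mice in both organs. With pools A and B only, that is 2 arrays a group, 46 genes were DE and 34 of them were among the 40. With pool B of Gl-2 left out 47 genes were DE and all 40 remained.

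In 38 of the 39 genes the 3 Gl-2 arrays lay above the other 12 kidney arrays too, which holds for 1.68% of all genes, and 3 of those 12 are the Gl-1 arrays that the call already places below. The exception was Per1, where 1 Control array (9.15) was above pool B of Gl-2 (9.12). Among the HCD arrays, Egr1 read 6.92, 6.70 and 6.45, Nr4a1 6.94, 6.98 and 6.81 and Fos 5.89, 6.08 and 6.04, and for each of the 3 the Gl-1 arrays given above overlapped with the HCD arrays. Against HCD, Egr1 was higher by 3.97 with Gl-2 and by 0.11 with Gl-1, Nr4a1 by 3.47 and 0.05, and Fos by 2.69 and 0.12, all with the same HCD arrays. Of the 39 genes, only Slc25a25 passed limma's adjusted p in Gl-1 against HCD (7.91, 7.92 and 8.02 in HCD, 8.56, 8.59 and 8.66 in Gl-1, difference 0.65, adjusted p = 0.0114).

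Liver of the same mice showed part of the difference. Of the 39 kidney genes, 38 had a positive log2 difference in liver, all but Gem, and 17 were DE and higher there (43.6% of the 39, and 54.8% of the 31 genes that were DE and higher in liver), where 0.14% of all genes were. The share of all genes with a positive difference was not computed for liver or brain, and in kidney it was 11081 of 22080. In liver the pools were far apart. Egr1 read 10.72, 6.98 and 11.16 in liver Gl-2 pools A, B and C and 7.14, 7.43 and 7.04 in the liver Gl-1 pools (difference 2.42, SE 0.48, adjusted p = 0.00317). Fos read 8.66, 6.55 and 9.59 against 6.43, 6.32 and 6.43 (difference 1.87, SE 0.32, adjusted p = 0.000767). For Egr1 the liver pool B was below every Gl-1 array, while the kidney pool B stood with the other Gl-2 arrays. The 3 liver Gl-2 arrays lay fully above the 3 Gl-1 arrays in 13 of the 39 genes, against 9.36% of all genes. In brain 16 of the 39 were positive, 1 had an unadjusted p under 0.05 and none passed limma's adjusted p, where 3 of all genes did (0.0136%).

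A contrast of the kidney difference minus the liver difference called 21 genes, 14 with a higher value in kidney than in liver (0.0634% of all genes) and 7 with a lower one (0.0317%). Of the 40 kidney DE genes 9 were among them. Nr4a1 differed by 3.41 in kidney and 1.41 in liver (difference of differences 2.00, SE 0.39, adjusted p = 0.0148). Nr4a3 differed by 1.71 and 0.18 (1.54, SE 0.18, adjusted p = 2.47e-06), and its liver arrays did not pass alone (adjusted p = 0.464). Nr4a2 differed by 1.42 and 0.26 (1.16, adjusted p = 5.99e-06). Gem differed by 1.34 and -0.15 (1.49, adjusted p = 1.17e-06), and Cyp24a1 by -0.92 and 0.07 (-0.98, adjusted p = 0.000378). Cyr61 (1.71), Plk3 (1.40), Ier3 (0.83) and Adamts1 (0.72) were the other 4. For Egr1 (1.44, SE 0.68, adjusted p = 0.376), Fos (0.70, SE 0.45), Jun (0.27, SE 0.44), Hspa1a (0.56, SE 0.33) and Dnajb1 (-0.26, SE 0.40) the test found no difference between the tissues at its threshold, which does not show that they were alike. The number of genes depends on the arrays: it was 9 without kidney Gl-2 pool A, 11 without kidney Gl-2 pool C, 10 without kidney Gl-1 pool B, 12 without kidney Gl-1 pool A, 11 without liver Gl-1 pool A and 13 without its pool C, 41 without liver Gl-2 pool B and 99 without liver Gl-1 pool B. Gem, Nr4a2 and Nr4a3 were called under all 22 alternatives and Cyp24a1 under 20.

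**Figure D5:**
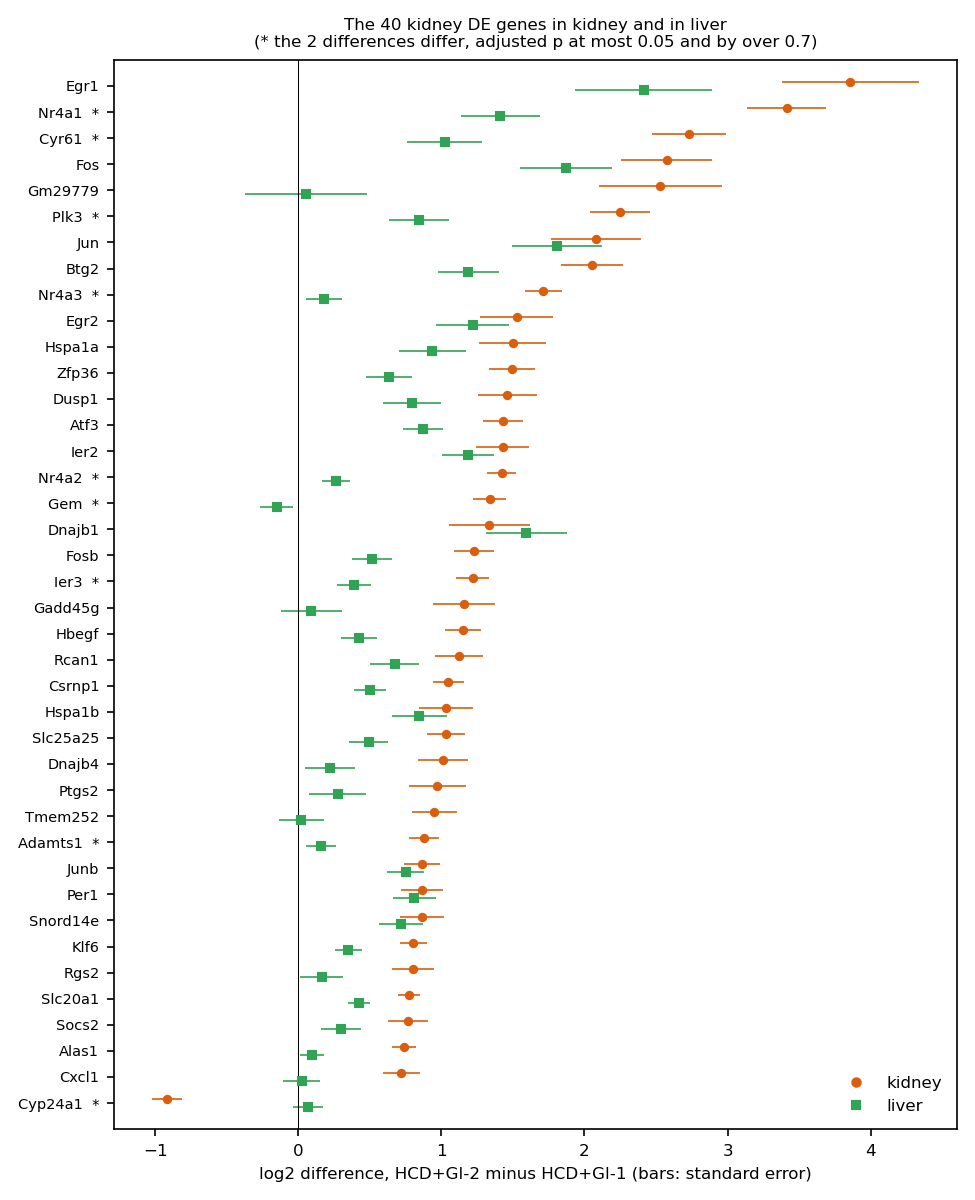
Log2 difference, HCD+Gl-2 minus HCD+Gl-1 (x axis, bars for the standard error), of the 40 kidney DE genes (y axis) in kidney (circles) and liver (squares), with a star where the 2 differences were called different. Egr1, Fos and Jun are high in both tissues, whereas Nr4a3, Gem and Cyp24a1 lie near 0 in liver.

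The cell makeup of the 6 arrays was compared through 17 marker lists of 119 genes. The podocyte markers Nphs1 (0.16) and Wt1 (-0.14) were not called, and the podocyte list (7 genes) overlapped between the groups at 10.99 to 11.18 with Gl-2 and 10.85 to 11.03 with Gl-1. The summed levels of 6 of the 17 lists did not overlap between the groups, although none of their members was called. Of single genes 8.28% had the Gl-2 arrays fully above the Gl-1 arrays and 8.31% fully below. No such share was computed for sums of genes, so the count of lists alone does not show a shift in cell makeup. Proximal tubule markers (10 genes) summed to 15.91 to 15.92 with Gl-2 and 15.95 to 15.98 with Gl-1, and thick ascending limb markers (6 genes) to 13.68 to 13.73 and 13.66 to 13.68, which differ only past the second decimal at the nearest arrays. Inner medulla and thin limb markers (7 genes) summed to 11.92 to 11.95 and 11.55 to 11.77, with Slc5a3 (0.45) and Akr1b3 (0.29), which answer to osmolality, in front. Endothelial markers (8 genes) summed to 12.22 to 12.30 and 12.10 to 12.15, mesangial and smooth muscle markers (7 genes) to 11.35 to 11.39 and 11.24 to 11.32, and hepatocyte markers (6 genes) to 11.92 to 12.10 and 11.73 to 11.79. Of the 6 hepatocyte markers Ttr differed by 0.35, 4 were negative and the median was -0.05. Leukocyte markers (9 genes, 11.14 to 11.24 and 11.16 to 11.35) and red cell markers (5 genes, 12.84 to 12.95 and 12.74 to 12.84) overlapped. The part of these shifts in the gene differences was not tested, and in pooled tissue fewer cells of a type and less RNA per cell cannot be told apart.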

How the data were processed

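RNA of liver, kidney and brain was hybridised to Affymetrix mouse gene st v1.0 arrays, and the authors deposited 1 table of log2 intensities for 45 arrays, made by RMA background correction, quantile normalization in the R package oligo and ComBat, with the probe set of largest interquartile range kept per gene. Which arrays formed the ComBat batches is not given in the sources used here, and a correction of this kind can narrow the spread within groups. Groups were taken from the sample labels. From these values limma 3.58.1 in R 4.3.3 fitted 15 group means, tissue by diet, to all 45 arrays, with an empirical Bayes variance (prior of 7.34 and residual of 30 degrees of freedom) and p-values over the 22080 genes were adjusted by the Benjamini-Hochberg procedure. DE genes had an adjusted p of at most 0.05 and a log2 difference over 0.7 in size, the thresholds of the study's methods. A contrast within the same fit tested the kidney difference minus the liver difference. Levels of different probe sets were not set against each other as amounts of RNA.

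The rule for named genes took, in each direction, the 15 largest differences among DE genes (at the adjusted p alone where fewer were DE) whose arrays did not overlap, every DE gene of a list, and the highest and lowest member of each list. Genes with names turned into dates or serial numbers (30) were left out. Other genes, among them most list members given as not called, Tmem252, Snord14e and Bcl6, were added after their values were seen. The comparison, lists and markers were chosen with earlier results of these data known, so list counts are descriptions. The scripts were tested on simulated data. Promoter windows came from RefSeq (GRCm38.p6), and a promoter that the table did not hold is not shown. Alternatives changed the arrays in the fit, the normalization, the variance model, a filter on a mean kidney level of 5, the fold threshold and the array left out. Arrays carry no read depth, and 3 arrays a group, from 2 independent pools of mice and their mix, limit the precision. Some genes are not reported here.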

Additional observations from a re-analysis of the deposited data

Results flagged for a closer look

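The difference between HCD+Gl-2 and HCD+Gl-1 itself differed between kidney and liver for 11 of the genes named by the rule, by the limma contrast of the kidney difference minus the liver difference. The value was positive, that is higher in kidney, for Nr4a1 (2.00), Cyr61 (1.71), Nr4a3 (1.54), Gem (1.49), Plk3 (1.40), Nr4a2 (1.16), Ier3 (0.83), Nfil3 (0.75) and Adamts1 (0.72). It was negative for Klk1b8 (-0.86) and Cyp24a1 (-0.98). The first 9 genes except Nfil3 and Gem had a positive difference in liver as well, which ran from 0.16 for Adamts1 to 1.41 for Nr4a1. Nfil3 was higher by 0.49 in kidney and differed by -0.27 in liver, and Klk1b8 differed by -0.48 in kidney and 0.38 in liver. The liver values rest on pools that were far apart: Nr4a1 read 8.69, 6.97 and 9.20 in liver Gl-2 pools A, B and C and 6.63 to 7.06 in liver Gl-1. Under the 22 alternatives that gave a value, Nr4a3, Gem and Nr4a2 were called in all, Cyp24a1 in 20 and Nr4a1 in 19, Nfil3 in 16, Ier3 in 15, Plk3 in 14, Cyr61 in 12 and Adamts1 in 11, and Klk1b8 was called in 18 of 21.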

How the results depend on the processing

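The number of DE genes in kidney was 40 and kept within 1.5 times of that in every alternative run, from 36 (compared groups only, and without pool C of Gl-2) to 47 (without pool B of Gl-2), and was 27 with a log2 threshold of 1. No called gene that was named reversed its direction, and Batf2, which was not called (-0.02), turned sign with 3 of the single arrays left out (-0.08 to 0.02). The number at the adjusted p alone, 87, became 163 with the 15 kidney arrays only, 378 with array weights, and 55 to 107 with 1 array left out. The 21 genes of the kidney minus liver contrast became 11 with liver and kidney arrays only, 4 with the compared groups only, 11 with pools A and B only, 8 with a log2 threshold of 1, 50 with array weights and 9 to 99 with 1 array left out. The cause of these moves was not tested. The pool letters did not pair the arrays (correlations of their deviations -0.03, 0.04 and 0.04), and with the letter as a replicate block the counts were 41 DE genes (all 40 kept), 94 at the adjusted p (81 kept) and 27 in the contrast (20 kept). Of the single-gene values over all alternatives 1416 kept their call or its absence, 253 lost the call, 6 gained it (Npas2, Acot2 and Slc7a12) and 3 turned sign (Batf2), and of the list counts and directions 587 were alike, 54 lower and 26 higher. Among DE genes, Dnajb1, Alas1, Ptgs2, Cxcl1 and Hspa1b lost the call with an array left out, Hspa1a, Per1 and Tmem252 with the compared groups only, and Klf6 and Socs2 with pools A and B only. Of these, Alas1, Cxcl1, Klf6 and Socs2 missed only the fold threshold of 0.7, and their adjusted p stayed under 0.05 in all 15 alternatives. With 3 arrays a group, of which 1 is a mix of the others, small differences were not detectable.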

Other observations

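Besides the called genes, 3 genes differed by more than the threshold of 0.7 without passing limma's adjusted p. These were Bcl6 (-0.97, adjusted p = 0.183), the urinary protein gene Mup2 (-0.74, adjusted p = 0.985) and the snoRNA Rnu3a (0.94, adjusted p = 0.177), and all 3 were named after their values were seen.

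Small nucleolar RNAs that lie within other genes in RefSeq passed the adjusted p where those genes were not called. Snora31, within Tpt1, was higher with Gl-2 by 0.69 and Tpt1 differed by -0.03. Snora7a, within Rpl32, was higher by 0.38 and Rpl32 differed by -0.04. Snora34, within Kansl2, was higher by 0.43. Snord14e and Snord14d, within Hspa8, were higher by 0.86 and 0.57, and Hspa8 differed by 0.34. The calls on Snora31, Snora7a, Snora34 and Snord14d were each lost in 4 to 8 of 15 alternatives. Snord14a, Snora70 and Snora75, within Rps13, Rpl10 and Ncl, did not pass the adjusted p. These genes were named after their values were seen, and no test of the difference between a snoRNA and its host gene was made.

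Several genes of the kidney minus liver contrast had their larger difference in liver: Gm6484 (1.13 in liver, -0.06 in kidney), Bud13 (1.04 and 0.05), the cytokine Il1a (0.88 and -0.16) and the scavenger receptor Msr1 (-0.78 and 0.07). Tsc22d1 (0.21 in kidney, -0.67 in liver) and Kynu (0.46 and -0.45) ran in opposite directions in the 2 organs, and neither was called in kidney alone.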
